A study of Mus musculus with 14 samples.

Results

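Enzymes that use arginine and its products in CD11b+ cells of the injured mouse brain were followed through 7 genes. They are Nos2 (inducible nitric oxide synthase), Odc1, Srm, Sms and Sat1 (polyamine synthesis and turnover), Gatm (the first step of creatine synthesis) and Oat (ornithine aminotransferase). The genes were chosen by name for their place in these pathways, and all 7 were found among the 33939 genes of the expression table. CD11b+ cells, a fraction that holds microglia and infiltrating myeloid cells, were taken with magnetic beads at 3 days after traumatic brain injury (TBI). They came from the injured ipsilateral (IL) and the contralateral (CL) hemisphere, and their RNA was sequenced. All mice were C57BL/6 of 8 to 12 weeks, were given tamoxifen and carried the allele Cx3cr1-CreER+/-, a tamoxifen-dependent recombinase driven from the Cx3cr1 gene. Ctrl mice carried no floxed allele, and conditional knockout (cKO) mice carried, in addition to the recombinase, a gene flanked by loxP sites on both chromosomes. The groups were Ctrl CL (n = 4), Ctrl IL (n = 4), cKO CL (n = 3) and cKO IL (n = 3). In all, 14 libraries were made from 8 mice, and both hemispheres were sequenced for 6 of them. Of the other cKO mice, mouse 784 gave an IL and mouse 788 a CL library. By the study's methods, the mice were left untreated for a period after tamoxifen so that Cx3cr1+ blood monocytes were replaced, so monocytes that entered the brain after injury may largely carry unrecombined alleles. Every Ctrl mouse differed from every cKO mouse in the floxed allele as well as in recombination, and these cannot be told apart.

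Arginine is shared between competing enzymes in myeloid cells. Inducible nitric oxide synthase turns it into nitric oxide and citrulline, and other routes lead from it to ornithine. Ornithine feeds the polyamines, through ornithine decarboxylase (Odc1), spermidine synthase (Srm) and spermine synthase (Sms), and Sat1 acetylates polyamines for breakdown or export. Ornithine also feeds proline and glutamate through Oat, and Gatm joins arginine to glycine to make the precursor of creatine.

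Values are CPM, read counts scaled so that each library sums to 1000000, with 12.2 to 41.6 M reads behind each library. The homeostatic microglia markers (10 genes, among them P2ry12 and Tmem119) summed to 39967 to 48130 CPM in the CL and 22873 to 27781 CPM in the IL libraries, and 7 of 10 were called lower in IL in each genotype, where 2.96% (Ctrl) and 9.52% (cKO) of all genes tested were called lower. The infiltrating monocyte markers (10 genes) summed to 148 to 975 CPM in Ctrl CL, 623 to 904 in Ctrl IL, 134 to 371 in cKO CL and 588 to 802 in cKO IL, and 4 of 10 were called higher in IL in each genotype, where 3.63% and 12.8% of all genes were. The neutrophil markers (10 genes) summed to 1420 to 8606 CPM in Ctrl CL, 909 to 1505 in Ctrl IL, 1347 to 2447 in cKO CL and 917 to 1160 in cKO IL, lower in IL in each of the mice with both hemispheres. In Ctrl mice 0 of 10 were called by limma, with 6 at an unadjusted p under 0.05 where 21.1% of all genes tested stood, and the median of the list was -2.71 on the log2 scale beside -0.04 over all genes tested. In cKO mice 5 of 10 (S100a8, S100a9, Camp, Ngp and Ltf) were called lower in IL, against the 9.52% above, with a median of -1.17 beside 0.02. Between genotypes 0 of the monocyte and 0 of the neutrophil markers were called by limma in either hemisphere (background 0.662% in IL and 0.873% in CL), with 1 and 0 of 10 at an unadjusted p under 0.05 in IL and 1 and 3 of 10 in CL, beside 8.91% (IL) and 9.81% (CL) of all genes tested. Dissociation response genes (10 genes) summed to 27590 to 35780 CPM in Ctrl CL, 19340 to 21565 in Ctrl IL, 30399 to 42442 in cKO CL and 19831 to 22896 in cKO IL, lower in every IL library. In Ctrl mice 0 of 10 were called by limma, with 4 at an unadjusted p under 0.05 where 21.1% of all genes tested stood. In cKO mice 4 of 10 were called lower, against the 9.52% above. Of the homeostatic markers, 1 of 10 was called lower in cKO in IL and 0 in CL (backgrounds 0.301% and 0.41%). The dissociation response genes gave 0 calls between genotypes, with 4 of 10 at an unadjusted p under 0.05 in each hemisphere. In CL, 6 of 8 oligodendrocyte markers (1 called lower) and 4 of 8 border-associated macrophage markers (0 called) stood under it, named after their values were seen. In IL these were 0 of 9 and 1 of 8, with 0 called. The part of these lists in the differences below was not tested. No marker of these lists was at 0 in every library of a group. In such bulk RNA, a change in the mix of cells and a change of RNA within a cell cannot be told apart.

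Per length, the genes spanned a wide range of levels, in CPM per kilobase of exon. In Ctrl CL the order was Sat1 (219 ± 19.4, SD, n = 4), Gatm (103 ± 17.5), Srm (39.7 ± 5.35), Oat (35.5 ± 4.45), Odc1 (18.8 ± 2.42), Sms (1.09 ± 0.26) and Nos2 (0.062 ± 0.054). The libraries overlapped between Srm and Oat, and lay apart at every other step. In Ctrl IL, Sat1 stood first again at 204 ± 3.55 CPM per kilobase, above Gatm at 101 ± 1.22. In both hemispheres of the cKO mice Gatm stood first, at 641 ± 259 in CL and 601 ± 209 in IL (n = 3 each), with all libraries above those of Sat1. Nos2 was last in every group, with 0.561 ± 0.365 in Ctrl IL, where its libraries overlapped those of Sms. Thus the head of the order differed between the genotypes, while Srm, Oat and Odc1 stayed in the middle in all 4 groups.

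**Figure D1:**
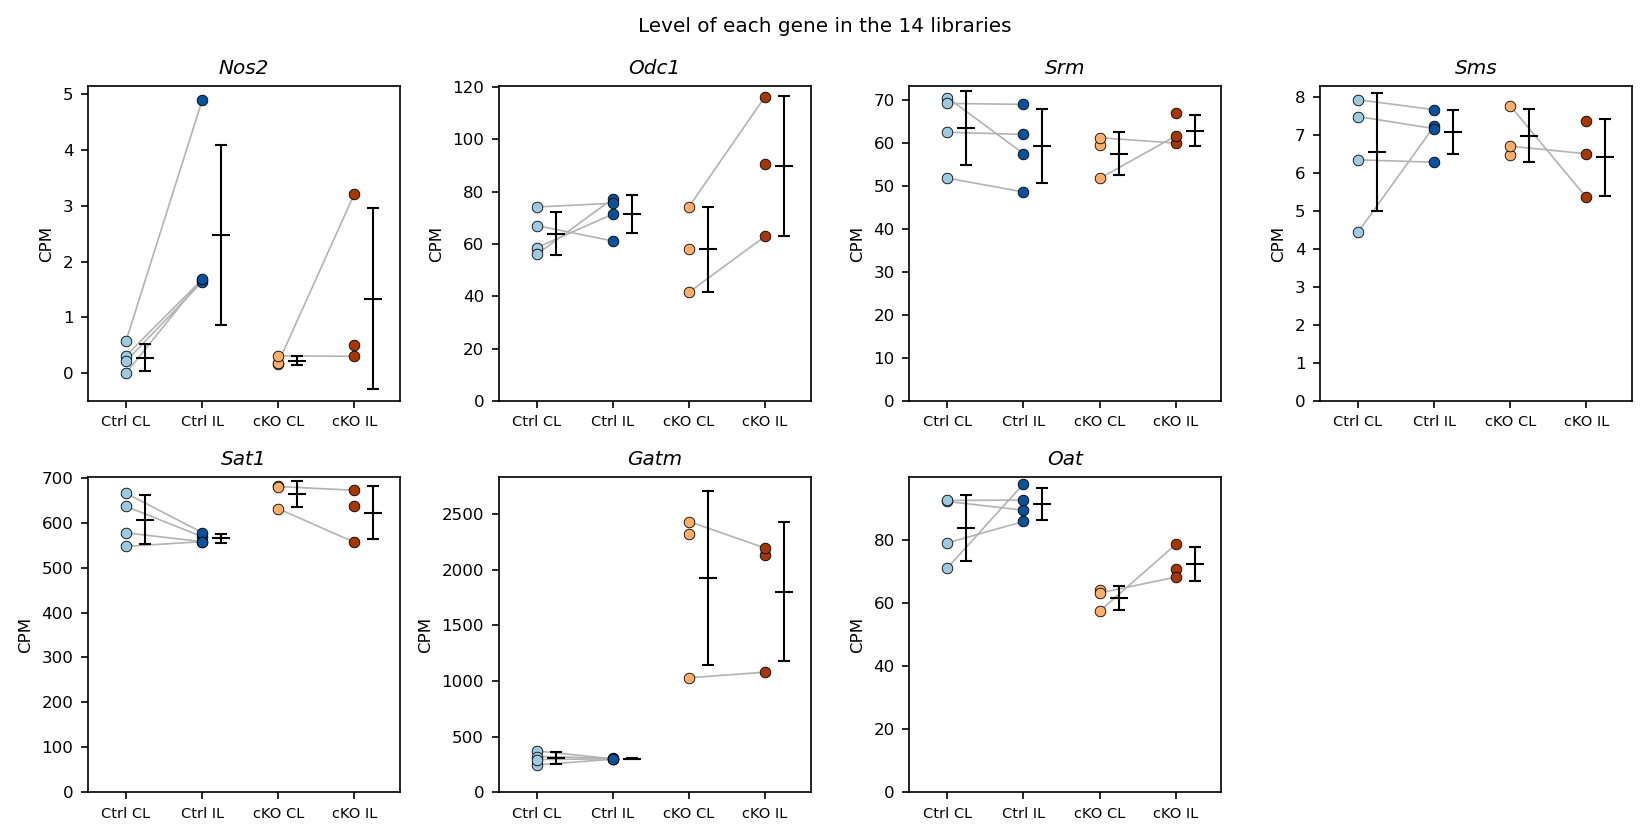
Level of each gene in CPM (linear axis, 1 panel per gene) in the 4 groups. Points are libraries, grey lines join the hemispheres of a mouse, and bars at the side give the mean ± SD. Gatm is higher in every cKO library (1029 to 2431 CPM) than in every Ctrl library (247 to 372 CPM).

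Which of these genes differ after injury, and which with the genotype, was tested with limma across all genes that passed a filter on low values. A gene was called at a Benjamini-Hochberg adjusted p of at most 0.05 and a fold change of at least 1.2. Between the hemispheres of Ctrl mice, Nos2 was higher in IL, so that 1 of 7 genes was called, against 6.58% of all 16376 genes tested (3.63% higher and 2.96% lower). The groups did not overlap for Nos2 alone, against 17.7% of the genes tested. Between the hemispheres of cKO mice, Oat was called, higher in IL, so 1 of 6 genes tested, against a background of 22.4% (12.8% higher and 9.52% lower), and the groups of the same gene did not overlap, against 42.4%. Nos2 lay under the filter there. Between genotypes, Gatm alone was called, higher in cKO, in the IL hemispheres (1 of 7, background 0.662%, of which 0.361% higher and 0.301% lower) and in the CL hemispheres (1 of 6, background 0.873%, of which 0.464% higher and 0.41% lower). Groups did not overlap between genotypes for Gatm and Oat, in IL (2 of 7, background 10.3%) and in CL (2 of 6, background 9.99%). For the genotype by hemisphere interaction limma called 0 of the 7, and 0% of all 18476 genes tested, with 481 of those genes and 0 of the 7 at an unadjusted p under 0.05. The 7 genes had a median log2 fold change of 0.18 between the hemispheres of Ctrl mice, beside -0.04 for all genes tested, and the 6 tested in cKO had 0.12 beside 0.02. Between genotypes the medians were 0.11 in IL beside 0.01 for all genes, and -0.02 in CL beside -0.05.

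**Figure D2:**
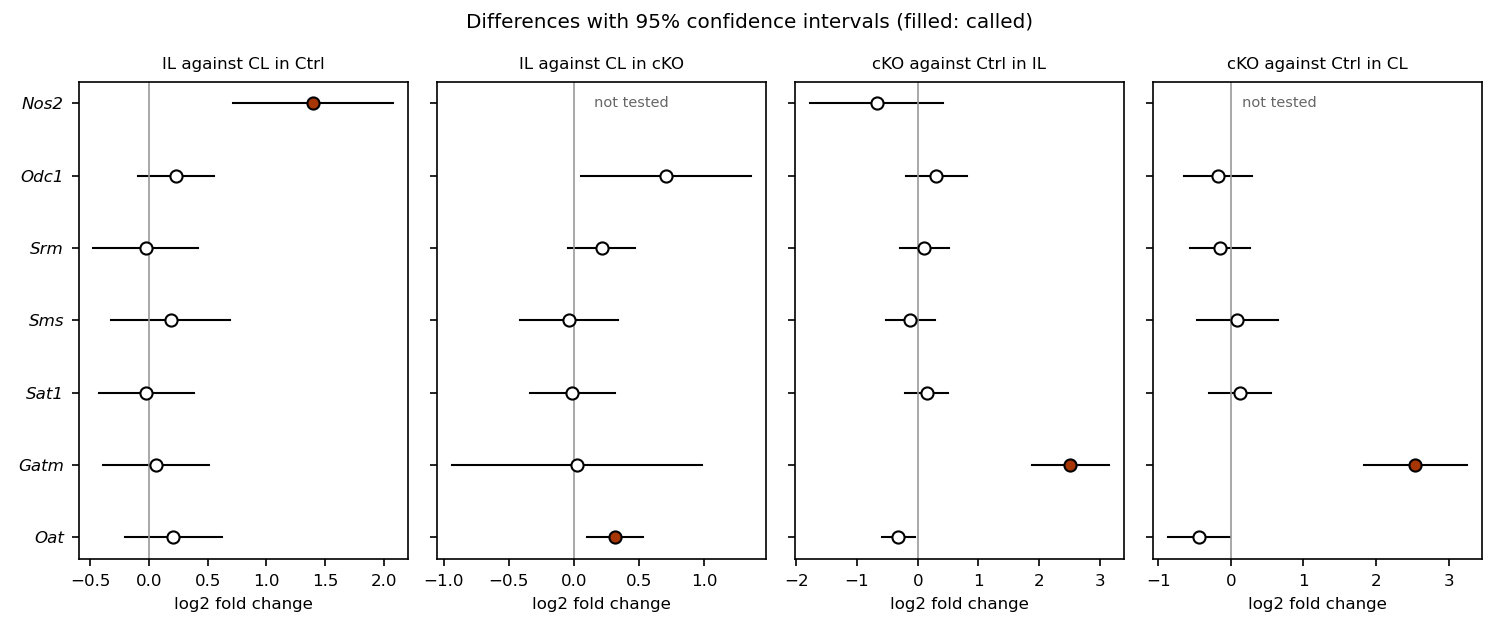
Difference of each gene in 4 comparisons, as log2 fold change on the log2(CPM + 1) scale with its 95% confidence interval. Filled points passed both thresholds. Nos2 is the filled point between the hemispheres of Ctrl mice (1.40), Oat is filled in cKO mice (0.31), and Gatm is the filled point in both comparisons of genotypes (2.52 in IL and 2.54 in CL).

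Nos2, the inducible nitric oxide synthase (chromosome 11, 78920787 to 78960254, plus strand, GRCm38), stayed near the lower end of detection. In Ctrl CL it measured 0.313 CPM in mouse 3541, 0.577 in 3545, 0.212 in 3546 and 0 in 3551, the worth of 13 reads, 23 reads, 6 reads and 0 reads. In Ctrl IL it measured 1.68, 4.89, 1.64 and 1.70 CPM, or 59 reads, 172 reads, 20 reads and 58 reads. No CL library reached an IL library, and IL exceeded CL by 1.40 on the log2 scale (SE 0.30, limma adjusted p = 0.0252). The call was lost without the IL library of mouse 3541 (limma adjusted p = 0.0576), the CL library of mouse 3546 (0.0680) or the CL library of mouse 3551 (0.0646), and with no filter on low values (0.0916). With the mouse as a fixed block it held (SE 0.19, limma adjusted p = 0.00309), with 1 of 7 genes called against a background of 20.5%.

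In cKO CL, Nos2 measured 0.166, 0.182 and 0.310 CPM in mice 788, 791 and 3592, and in cKO IL 0.497, 3.21 and 0.30 CPM in mice 784, 791 and 3592. Mouse 791 alone stood out in IL, and the hemispheres of mouse 3592 were level at 8 reads and 9 reads. Between genotypes in IL the difference was -0.68 (SE 0.48, limma adjusted p = 0.804).

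The polyamine enzymes are measured beside other genes with matching stretches of sequence, called copies here. For Odc1 the copies in the table matched over 291 to 1407 bases, at 84.9% to 97.8% identity. Odc1 (chromosome 12, 17544794 to 17551505, plus strand) has 19 copies with values in the table, of which the 3 most abundant are shown here over the first 60 coding bases to show why reads can be hard to assign. Over the whole alignment, AW146154 was 92.1% identical to Odc1 (921 bases), Gm7993 95.7% (1388 bases) and Gm9115 96.7% (1349 bases), so that other stretches differ more than the start. The sequences are written 5′ to 3′ from the GENCODE M21 transcripts on GRCm38, with capitals for bases that differ from Odc1.
Odc1: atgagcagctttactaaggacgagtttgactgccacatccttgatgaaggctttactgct
AW146154: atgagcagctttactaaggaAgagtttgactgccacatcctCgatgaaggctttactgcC
Gm7993: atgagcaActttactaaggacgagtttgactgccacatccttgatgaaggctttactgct
Gm9115: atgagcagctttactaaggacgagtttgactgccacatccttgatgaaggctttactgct
AW146154 differed at 3 of these bases, Gm7993 at 1 and Gm9115 at 0. Their highest levels were 17.1, 9.99 and 9.06 CPM, and the 19 copies together held 33.6 ± 1.49 CPM in Ctrl CL (SD, n = 4), 30.2 ± 5.6 in Ctrl IL, 30.9 ± 3.16 in cKO CL and 35.3 ± 4.07 in cKO IL.

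Odc1, the rate-limiting enzyme of polyamine synthesis, showed no called difference between the hemispheres of Ctrl mice. It measured 67, 58.5, 56.0 and 74.1 CPM in Ctrl CL and 61.1, 71.4, 77.2 and 75.5 CPM in Ctrl IL (mice 3541, 3545, 3546 and 3551). The groups overlapped, and the log2 fold change was 0.23 (95% interval -0.09 to 0.55, limma adjusted p = 0.421). In cKO mice it measured 58.2 CPM in mouse 788, 74.1 in 791 and 41.5 in 3592 for CL, and 90.5 in mouse 784, 116 in 791 and 62.9 in 3592 for IL. Mouse 3592 was lowest in both hemispheres, so the groups overlapped, while both mice with 2 hemispheres were higher in IL, by 1.57-fold and 1.51-fold. The difference of 0.70 (SE 0.28, limma adjusted p = 0.113) passed with the mouse as a fixed block (limma adjusted p = 0.0138) and as a random effect (0.00943). The fixed block rests on mice 791 and 3592, because the libraries of mice 784 and 788 drop out of it. It also passed without the IL library of mouse 3592 (limma adjusted p = 0.0401). With the copies summed in, the unblocked difference was 0.57 (SE 0.24, limma adjusted p = 0.122). The interaction for Odc1 was 0.48 (SE 0.32, limma adjusted p = 1.0).

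**Figure D3:**
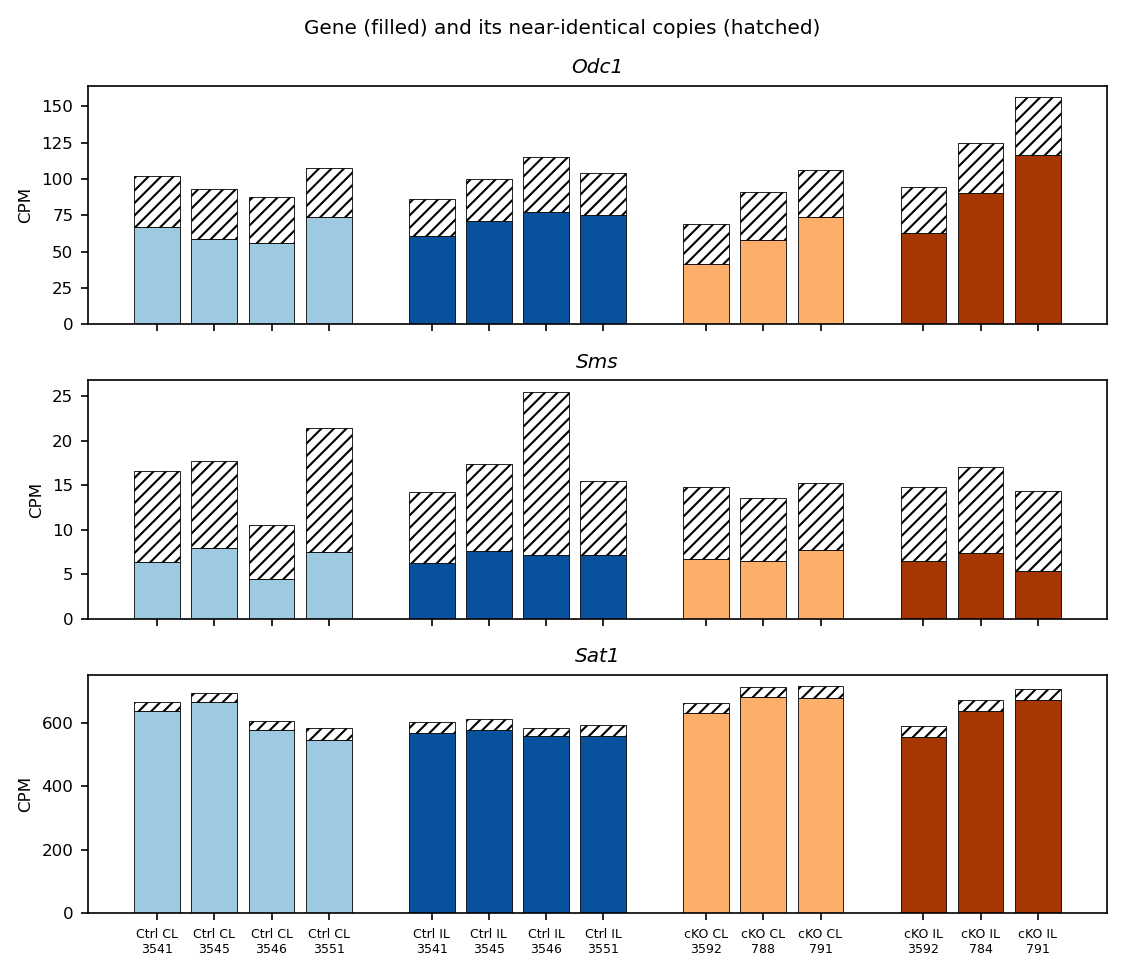
CPM of Odc1, Sms and Sat1 (filled) with the summed CPM of their copies (hatched) in each of the 14 libraries, labelled by group and mouse. The copies hold 25 CPM or more beside Odc1, more than Sms itself in 13 of 14 libraries, and a small share beside Sat1.

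Srm, Sms and Sat1 showed no called difference in any comparison. Srm (chromosome 4, 148591503 to 148594993, plus strand), which makes spermidine, lay between 48.6 and 70.6 CPM in all 14 libraries. Its 95% interval between hemispheres was -0.47 to 0.42 on the log2 scale in Ctrl mice and -0.04 to 0.47 in cKO mice. Sms (X chromosome, 157443855 to 157492287, minus strand), which makes spermine, lay between 4.44 and 7.92 CPM. Its copy Sms-ps is identical over 1101 bases and was listed at 6.04 to 17.1 CPM, so the level of Sms is uncertain, and so is the sign of its differences. With the copies summed in, the cKO difference between hemispheres turned from -0.04 to 0.16, and the CL difference between genotypes from 0.09 to -0.15, none of them called.

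Sat1 (X chromosome, 155213132 to 155216449, minus strand), which acetylates spermidine and spermine, lay between 547 and 681 CPM in all 14 libraries. Its 95% interval between hemispheres was -0.43 to 0.38 in Ctrl mice and -0.34 to 0.31 in cKO mice. Between genotypes it was -0.21 to 0.50 in IL and -0.30 to 0.55 in CL. The ratio of Odc1 to Sat1 per length was 0.072 to 0.110 in Ctrl CL, 0.088 to 0.113 in Ctrl IL, 0.054 to 0.089 in cKO CL and 0.092 to 0.141 in cKO IL. The difference of these ratios between genotypes was not tested.

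Gatm, glycine amidinotransferase (chromosome 2, 122594467 to 122611303, minus strand), differed with the genotype in both hemispheres. In Ctrl mice it measured 372, 322, 247 and 295 CPM in CL and 302, 307, 298 and 302 CPM in IL (mice 3541, 3545, 3546 and 3551). In cKO mice it measured 2315 CPM in mouse 788, 2431 in 791 and 1029 in 3592 for CL, and 2134 in mouse 784, 2193 in 791 and 1079 in 3592 for IL. Both genotypes were far apart, and within the cKO group mouse 3592 was the lowest in both hemispheres while the other mice were close to each other.

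The log2 fold change of Gatm was 2.52 in IL (SE 0.28, limma adjusted p = 0.00547) and 2.54 in CL (SE 0.32, limma adjusted p = 0.00323). These are 5.72-fold and 5.83-fold changes, and the gene was called in every alternative tried in both hemispheres. Between hemispheres the difference was 0.06 in Ctrl mice (95% interval -0.40 to 0.51) and 0.02 in cKO mice (-0.94 to 0.98), with neither called, and the interaction was -0.03 (SE 0.47, limma adjusted p = 1.0). Within 2 Mb of Gatm, 0 of 42 other genes tested were called between genotypes in IL (background 0.662%) and 1 of 41 in CL (0.873%), which was Eif3j1, lower in cKO (log2 fold change -1.71, limma adjusted p = 0.0264), named after its value was seen. Just outside this window, at 2.19 Mb, Tmem87a was called higher in cKO in IL (3.16, limma adjusted p = 0.000460) and in CL (2.70, 0.000345).

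Oat, the mitochondrial enzyme that turns ornithine towards proline and glutamate (chromosome 7, 132557478 to 132576398, minus strand), was lower in cKO libraries without passing the test. It measured 92.3, 92.7, 71.2 and 79.2 CPM in Ctrl CL and 89.6, 92.8, 97.9 and 86.0 CPM in Ctrl IL. In cKO mice it measured 64.3, 63.3 and 57.5 CPM in CL (mice 788, 791 and 3592) and 70.8, 68.3 and 78.7 CPM in IL (mice 784, 791 and 3592). Every cKO library stood below every Ctrl library of its hemisphere, with log2 fold changes of -0.32 in IL (SE 0.12, unadjusted p = 0.0249, limma adjusted p = 0.424) and -0.44 in CL (SE 0.19, unadjusted p = 0.0459, limma adjusted p = 0.494).

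Between the hemispheres of cKO mice Oat was higher in IL by 0.31 (SE 0.09, limma adjusted p = 0.0450), at the edge of the threshold. It kept the call in 7 of 19 alternatives, and lost it with the mouse as a fixed block (0.38, limma adjusted p = 0.0953) and as a random effect (0.36, 0.0666), when all groups were fitted together (0.34, 0.251), with the CPM as deposited (0.23, limma adjusted p = 0.108), upper-quartile scaling (0.0703) or no filter (0.0866), at a fold of 2, and when any library but the CL library of mouse 788 was left out (limma adjusted p up to 0.125). In Ctrl mice the difference was 0.21 (SE 0.19, limma adjusted p = 0.609).

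The same metabolism was followed in other genes of arginine supply, polyamine handling, nitric oxide synthesis, creatine and proline, of which 47 matched the table. Between the hemispheres of Ctrl mice 5 of 43 tested were called, 4 higher and 1 lower in IL, a share to be read against the background of 6.58%. In cKO mice 10 of 43 were called, 9 higher and 1 lower, against 22.4%. With the mouse as a fixed block the counts were 10 (9 higher, background 20.5%) and 11 (10 higher, background 13.8%), the latter resting on mice 791 and 3592. The median log2 fold change was 0.10 in Ctrl and 0.14 in cKO mice, beside -0.04 and 0.02 for all genes tested.

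Arginine supply gave 3 calls of 9 tested in Ctrl and 3 of 8 in cKO mice, beside 6.58% and 22.4% of all genes. Slc7a2, a cationic amino acid transporter, was higher in IL by 1.06 (limma adjusted p = 0.0189) in Ctrl and 1.12 (0.00712) in cKO mice, from levels of 0.062 to 0.941 CPM in CL to 1.17 to 3.06 CPM in IL. Ass1, argininosuccinate synthase, which rebuilds arginine from citrulline, was higher by 0.96 (limma adjusted p = 0.0208) in Ctrl and 1.78 (0.00337) in cKO mice. Its IL levels were 1.10 to 2.13 CPM in Ctrl and 2.81 to 5.01 CPM in cKO mice, which did not overlap (background 10.3%), yet the difference between genotypes in IL did not pass (1.01, SE 0.26, limma adjusted p = 0.190). In Ctrl mice the call of Ass1 was lost in 4 of 8 fits that left out a library (IL of mouse 3541 or 3545, CL of mouse 3546 or 3551) and that of Slc7a2 in 3 of 8 (either library of mouse 3545, IL of mouse 3551), and both were lost with no filter. Ddah2, a dimethylarginine hydrolase, was lower in IL by -1.11 (limma adjusted p = 0.00746) in Ctrl and -1.15 (0.00321) in cKO mice, from 30.8 to 51.5 CPM in CL to 15.1 to 21.8 CPM in IL.

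Of 18 polyamine partners tested in each genotype, 1 was called in Ctrl and 4 in cKO mice, shares near the backgrounds of 6.58% and 22.4%. Atp13a2, a lysosomal polyamine exporter, was called in both, at 0.96 (limma adjusted p = 0.00752) in Ctrl and 0.76 (0.0228) in cKO mice, where the call was lost with the CPM as deposited, with no filter and in 4 of 6 fits that left out a library (IL of mouse 784, 791 or 3592, CL of mouse 791). The other calls in cKO mice were Dhps (0.52, limma adjusted p = 0.0156), which transfers part of spermidine onto Eif5a, Dohh (0.57, 0.00853), which hydroxylates the residue so made, and Eif5a itself (0.91, 0.00418). Eif5a2, the other protein modified in this way, gave -0.20 in cKO (limma adjusted p = 0.380) and 0.43 in Ctrl mice (0.241), where it was called with the mouse as a random effect (0.45, limma adjusted p = 0.0255). In Ctrl mice Dhps, Dohh and Eif5a gave 0.12, 0.47 and 0.41 (limma adjusted p = 0.793, 0.143 and 0.314), and the interactions were 0.40, 0.11 and 0.51 (limma adjusted p = 1.0 each), so that a difference between genotypes did not pass. With the mouse as a fixed block, Dohh (limma adjusted p = 0.0395) and Eif5a (0.0397) were called in Ctrl mice as well, and Dhps lost its call in cKO mice (0.0869). Dhps also lost it with all 14 libraries in the fit and without the IL library of mouse 784 or 791.

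Of the genes that serve nitric oxide synthesis, Gch1 and Spr make its cofactor tetrahydrobiopterin. In cKO mice Gch1 was higher in IL by 1.48 (limma adjusted p = 0.00183) and Spr by 0.51 (0.0325). The call of Spr was kept in 1 of 6 fits that left out a library (without the CL library of mouse 788), and was lost with the CPM as deposited, with no filter and with all 14 libraries in the fit. In Ctrl mice Gch1 gave 0.68 (limma adjusted p = 0.131, and 0.00806 with the mouse as a fixed block) and Spr 0.15 (0.748). Gch1 measured 30.6 to 43.1 CPM in Ctrl IL and 49.9 to 59.7 CPM in cKO IL, with a difference between genotypes of 0.50 that did not pass (SE 0.20, limma adjusted p = 0.489).

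Of the creatine genes, the transporter Slc6a8 was higher in IL by 2.14 in Ctrl (limma adjusted p = 0.000813) and 1.59 in cKO mice (0.00422), from 1.48 to 4.14 CPM in CL to 8.65 to 13.5 CPM in IL. The other creatine genes tested were not called in either genotype, nor were any of the 5 genes of ornithine and proline. With the mouse as a random effect, Aldh18a1 of the latter was called in Ctrl (0.36, limma adjusted p = 0.0416) and cKO mice (0.51, 0.0337). The same fit called the polyamine partners Amd1 (-0.38, limma adjusted p = 0.0290), Paox (0.41, 0.0447) and Slc18b1 (-0.36, 0.0344) in Ctrl mice. It also called Nos3 (1.09, limma adjusted p = 0.0484) in cKO mice. The backgrounds of this fit were 27.4% in Ctrl and 19.6% in cKO mice. With the mouse as a fixed block, Asl (0.50, limma adjusted p = 0.0101) and Atp13a3 (0.50, 0.0113) gained a call in Ctrl mice. In cKO mice, where this block rests on mice 791 and 3592, Slc7a1 (0.82, 0.037) and Ddah1 (1.05, 0.0389) gained one. Between genotypes limma called 0 of 44 genes in IL and 0 of 43 in CL, against 0.662% and 0.873% of all genes. At an unadjusted p under 0.05 stood 8 and 6 of them, beside 8.91% and 9.81% of all genes tested. The interaction gave 0 of 45, with 3 at an unadjusted p under 0.05, beside 2.6% of all genes.

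**Figure D4:**
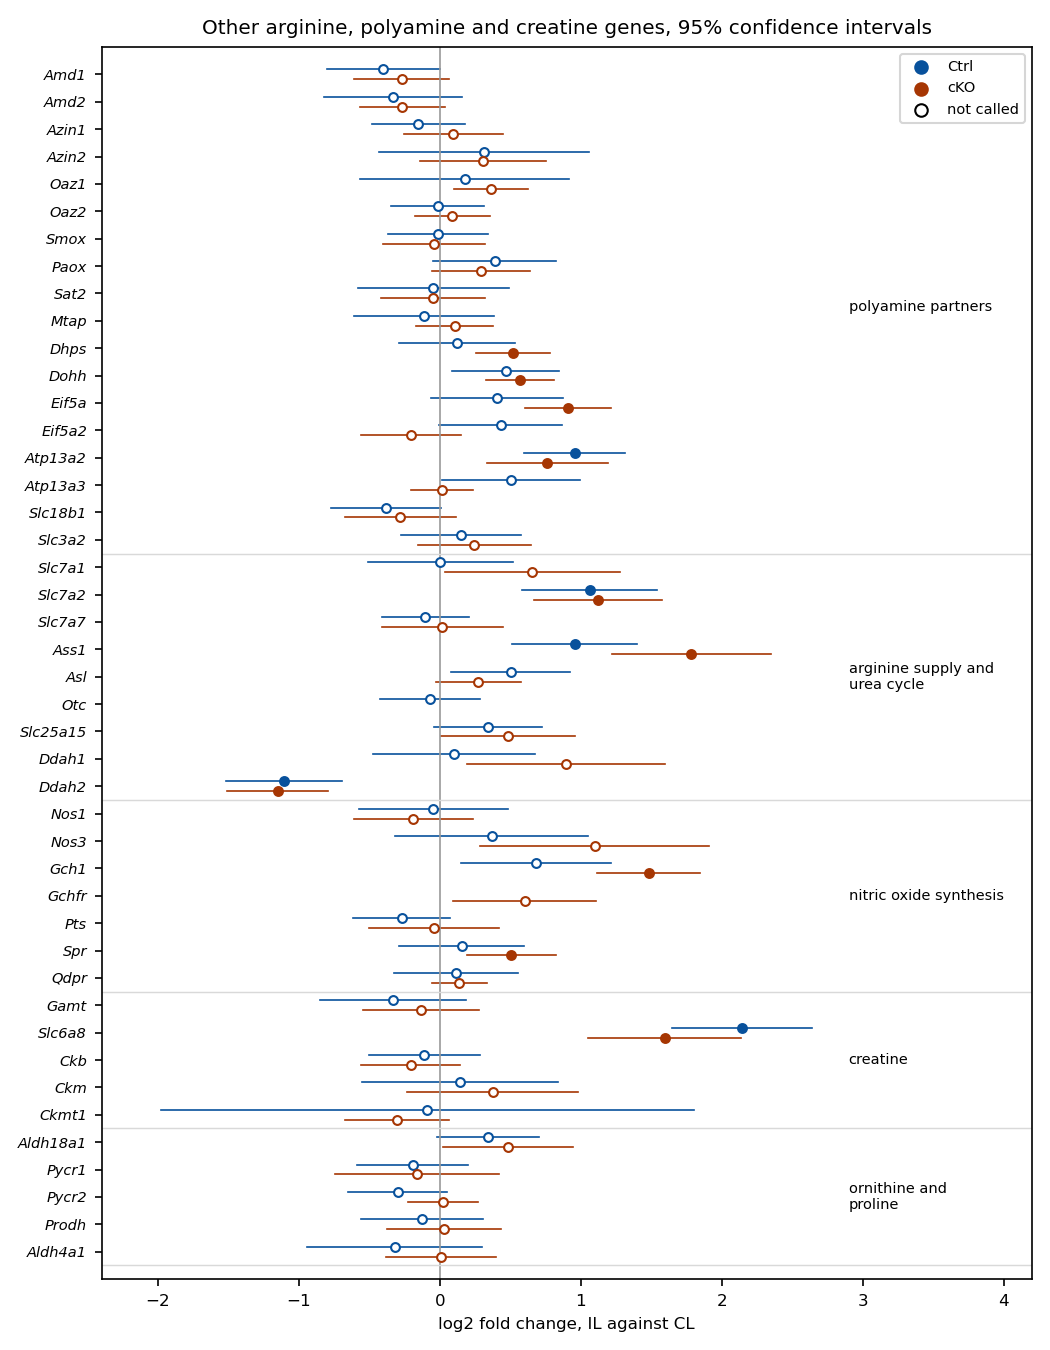
Differences between hemispheres (log2 fold change of IL against CL with 95% confidence intervals) for the pathway genes tested, in Ctrl (blue) and cKO mice (brown), grouped by role. Filled points were called. Slc6a8 (2.14 and 1.59), Ass1, Slc7a2 and Atp13a2 are filled to the right in both genotypes, and Ddah2 (-1.11 and -1.15) is filled to the left.

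The genes whose log2 values ran most closely with Nos2, Odc1, Gatm and Oat were found over the 14 libraries, as a description. The libraries share mice, hemispheres and genotypes, and 9752 genes or more were compared. For Nos2 they were Decr2 (0.910), Bnip3 (0.909) and Ero1l (0.902), and for Odc1 they were Cxcl10 (0.937), Tlr2 (0.905) and Smim3 (0.904). For Oat they were Tufm (0.974), Adk (0.966) and Slc30a5 (0.954). For Gatm they were Cap1 (0.962), Tpm3-rs7 (0.960) and Tmem87a (0.953), each higher in every cKO library. Tmem87a lies on the chromosome of Gatm, 2.19 Mb away, and measured 2.84 to 5.99 CPM in Ctrl and 28.7 to 55.8 CPM in cKO libraries, while Cap1 and Tpm3-rs7 lie on chromosomes 4 and 14. Among the members themselves, r was 0.623 for Srm and Sms, 0.617 for Srm and Sat1 and -0.488 for Gatm and Oat.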

How the data were processed

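CD11b+ cells of both hemispheres were isolated with magnetic beads at 3 days after TBI, and libraries were made with a low-input full-length kit that does not mark strand. Per the labels and the study's methods, the authors aligned paired reads with STAR to mm10 and quantified genes in Partek Flow 8.0. The aligner's version and the annotation are not given in the sources used here. The deposited expression table is described as raw counts, but its values are CPM, since each column sums to 1000000. Between 79.0% and 83.5% of the values under 100 reads were whole multiples of 1 step per library (tolerance 0.03 of a step), from which a depth of 12.2 to 41.6 M reads was read. This was too few whole values for a count test. The authors' deposited tables of comparisons (p-values, false discovery rates, ratios, fold changes and group means) were not used.

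Genes were named by GENCODE M21 (GRCm38), which matched 33802 of 33939 genes. Values were divided by unweighted trimmed-mean factors (30% of M, 5% of A trimmed) and tested as log2(CPM + 1) with limma 3.58.1 (trend, empirical Bayes) in R 4.3.3, with Benjamini-Hochberg adjustment over all genes tested. Fold changes on this scale understate the change of low genes. Genes were kept for a test where the number of libraries at or above 10 reads, converted to CPM at the median depth, matched or exceeded the size of the smaller group, and where 15 reads or more were found in total. Hemispheres were compared within each genotype and genotypes within each hemisphere, without a mouse term, with the interaction over all 14 libraries. Comparisons between hemispheres and between genotypes share libraries. The scripts were tested on simulated data. Copies were found with BLAST 2.17.0 by the length of the match, without a set identity or a check of gene type. Figures were drawn with matplotlib 3.10.9 in Python 3.11.15.

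The mouse numbers in the labels pair the hemispheres. Deviations from the group means correlated at 0.182 to 0.608 (median 0.413) between hemispheres of the same mouse (n = 6), and at -0.536 to 0.503 (median -0.215) in the 19 other pairs. The mouse was therefore also fitted as a fixed block and as a random effect. Other alternatives were the pseudocount, scaling, filter and fold threshold, all libraries in 1 fit and each library left out. Summing copies into their gene was added after the data were seen.

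All 7 genes, the pathway and marker lists were chosen with earlier results of these data known. Named genes are all 7, each pathway gene called in a comparison of the main fit, and the 3 genes with the highest Pearson r for Nos2, Odc1, Gatm and Oat. Eif3j1 and some, not all, of the pathway genes called only in an alternative are named besides, after their values were seen. Some genes of the design are not reported here.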

Additional observations from a re-analysis of the deposited data

Results flagged for a closer look

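Nos2 in Ctrl IL had 1 library far from the others. Mouse 3545 measured 4.89 CPM, while mice 3541, 3546 and 3551 measured 1.64 to 1.70 CPM, a gap beyond Dixon's 95% critical value for 4 samples. The same mouse had the highest Nos2 of its CL group, at 0.577 CPM. In 14 gene and group combinations tested, 1 stood apart in this way, where chance gives about 5%.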

How the results depend on the processing

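Gatm between genotypes kept direction and call under every alternative tried (2.30 to 2.9 in IL and 2.33 to 2.97 in CL, log2). Of 680 values of 33 single-gene results, 612 kept direction and side of the threshold, 16 lost a call, 3 gained one and 49 changed sign, none of the latter called (sizes up to 0.391). Calls moved for Nos2, Odc1 and Oat, as given with their values above, and the causes were not tested. Members called between hemispheres of Ctrl mice (1) became 0 with no filter or with 10 reads in every library, and 0 to 1 leaving out a library (0 without the IL library of mouse 3541 or the CL library of mouse 3546 or 3551). In cKO mice (1) they became 0 with the CPM as deposited, upper-quartile scaling, no filter, a fold of 2 and all 14 libraries, and 0 to 1 leaving out a library (1 without the CL library of mouse 788, and 1, Odc1 in place of Oat, without the IL library of mouse 3592), and stayed at 1, Odc1 in place of Oat, with the mouse as a random effect or fixed block. The share of all genes tested that was called in the same fit stands in brackets after each count of pathway genes. Pathway genes called in Ctrl mice (5) became 3 with no filter (1.64%), 3 with 10 reads in every library (8.25%) and 3 at a fold of 2 (3.39%). They became 8 with all 14 libraries (12.8%), 15 when the mouse was added as a random effect to these (27.4%) and 10 as a fixed block (20.5%). Leaving out a library gave 3 to 6 (2.86% to 8.44%), with 3 without the IL library of mouse 3545. In cKO mice the pathway genes called (10) became 5 at a fold of 2 (4.91%), 8 with no filter (7.31%) and 8 with all 14 libraries (8.88%). They became 9 with the CPM as deposited (22.6%), 14 with the mouse as a random effect (19.6%), 11 as a fixed block (13.8%), and 7 to 10 leaving out a library. With all 14 libraries 1 pathway gene was called between genotypes in IL (Gchfr, 0.86) and 1 in CL (Slc18b1, -0.73), named after their values were seen. Beside the calls of Odc1, Oat and the pathway genes above, the replicate block by mouse changed no other call of a member.

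Signs turned for values near 0. In Ctrl mice, Gatm was -0.016 with the CPM as deposited, and Srm and Sat1 were 0.025 and 0.029 with upper-quartile and 0.013 and 0.017 with median-ratio scaling. In cKO mice, Gatm was -0.066 with the CPM as deposited and -0.018 with upper-quartile scaling. Sat1 there was 0.014 with all 14 libraries, and 0.016 and 0.0049 with the random and fixed replicate block. The interaction of Sat1 was -0.00157, -0.084 and -0.053 with the CPM as deposited, upper-quartile and median-ratio scaling. With copies summed, Sms was 0.158 between hemispheres of cKO mice and -0.151 between genotypes in CL. Leaving out a library gave, between hemispheres of Ctrl mice, -0.157 to 0.124 (Srm), -0.114 to 0.088 (Sat1) and -0.084 to 0.199 (Gatm). In cKO mice it gave -0.139 to 0.031 (Sms), -0.114 to 0.125 (Sat1) and -0.391 to 0.415 (Gatm). Between genotypes it gave -0.051 to 0.171 (Srm, IL), -0.359 to 0.066 (Odc1, CL) and -0.089 to 0.219 (Sms, CL), and for the interaction -0.074 to 0.139 (Sat1) and -0.438 to 0.348 (Gatm). Depth limits Nos2, with 0 to 23 reads in the CL libraries.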
